A study of Mus musculus with 21 samples.

Results

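The 10 Krüppel-like factors described here are Klf2, Klf3, Klf4, Klf5, Klf6, Klf9, Klf10, Klf11, Klf13 and Klf15, zinc-finger transcription factors picked by gene symbol from the 24028 genes of a mouse mammary tumour RNA-seq table. All 10 were found, and all 10 were among the 15792 genes that passed the filter on low counts. They were picked with earlier results of all 3 group comparisons in view, so their differences between groups are given as a description, without p-values, and support nothing. Every tumour came from WAP-Cre/PIK3CA-H1047R mice, in which the whey acidic protein promoter drives Cre in milk-producing mammary epithelium and the tumours carry an activating mutant of the PI3K catalytic subunit p110 alpha, the controls included. The 3 groups of 7 tumours were vehicle (DMSO), relapse under BYL719 and stable under BYL719. BYL719 (alpelisib) inhibits p110 alpha. The series' design speaks of responding and stable tumours and the sample labels of relapse and stable, and the sample labels are used here. Age, dose, treatment time and tumour measurements are not among the labels. Nor do the labels say whether the tumours of a group grew in separate animals. The number codes in their titles come to 3 for vehicle, 7 for relapse and 4 for stable, with 2 codes shared by a relapse and a stable tumour. P-values therefore measure only the spread between these tumours.

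Krüppel-like factors bind GC-rich and CACCC sequences through a carboxy-terminal zinc-finger domain that is much alike in all of them, and differ in the partners that the rest of the protein brings to the gene. Klf9, Klf10, Klf11 and Klf13 recruit the SIN3A corepressor. Klf3 recruits the CtBP corepressors, and Klf2, Klf4, Klf5 and Klf6 can recruit histone acetyltransferases. Klf10 and Klf11 were first described as early genes of the TGF-beta response, Klf9 and Klf15 are induced by glucocorticoids, Klf4 and Klf5 act in epithelial differentiation and growth, and Klf2 is known from endothelium under flow. FOXO factors, which enter the nucleus when PI3K and AKT are inhibited, bind the forkhead motif and act on several genes of the insulin pathway.

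The promoters of Klf11, Klf6 and Klf9 are shown because Klf11 differed most between groups, Klf6 varied with it from tumour to tumour, and Klf9 held the forkhead motif searched for. Each is the 250 bases before the annotated start (RefSeq, GRCm38.p6), on the plus strand: Klf11 at chr12:24651121-24651370, Klf6 at chr13:5861239-5861488 and Klf9 at chr19:23140976-23141225. Capitals mark a GC box (GGGCGG, or CCGCCC on the other strand), an E box (CACGTG, the same on both strands) or a forkhead motif (GTAAACA, or TGTTTAC on the other strand).
Klf11: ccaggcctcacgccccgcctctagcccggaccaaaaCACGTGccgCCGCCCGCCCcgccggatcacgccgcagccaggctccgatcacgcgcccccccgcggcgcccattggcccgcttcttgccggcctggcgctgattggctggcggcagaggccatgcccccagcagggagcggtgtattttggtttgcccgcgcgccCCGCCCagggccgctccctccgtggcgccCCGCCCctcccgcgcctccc
Klf6: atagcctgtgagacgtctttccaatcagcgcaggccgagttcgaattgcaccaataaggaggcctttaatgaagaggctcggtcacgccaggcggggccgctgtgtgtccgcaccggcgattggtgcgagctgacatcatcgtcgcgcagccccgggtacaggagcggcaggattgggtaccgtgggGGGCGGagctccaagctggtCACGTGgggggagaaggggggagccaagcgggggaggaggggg
Klf9: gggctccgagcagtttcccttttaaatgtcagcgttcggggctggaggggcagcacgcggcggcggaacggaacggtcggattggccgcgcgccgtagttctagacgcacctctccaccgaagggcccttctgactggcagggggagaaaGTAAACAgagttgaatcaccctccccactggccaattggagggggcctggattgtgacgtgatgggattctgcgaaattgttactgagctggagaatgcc

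Matches were searched from 250 bases before to 50 bases after the start, in 8 of the 10 members, since Klf5 and Klf10 are not in the RefSeq table used. The Klf11 promoter held 4 GC boxes, which began at -205, -201, -49 and -20 from the start, and an E box at -214. Klf6 held 1 GC box at -63 and an E box at -43. Klf9 held no GC box and 1 forkhead motif at -100. A GC box was found in 7 of the 8 members and in 35.9% of 32544 distinct mouse promoters of this length. A CACCC box (CACCC, or GGGTG on the other strand) was found in 5 of the 8 and in 57.7% of all promoters. Klf11 and Klf6 held none. An E box was found in 4 of the 8 and in 7.17% of all promoters, and the forkhead motif in 1 of the 8 and in 3.66%. Klf11, Klf6 and Klf9 held a CCAAT box, searched for on both strands, at 2, 4 and 3 places. It was found in 5 of the 8 members and in 37.4% of all promoters. The members' promoters held from 63.0% (Klf6) to 77.7% (Klf11) G and C, against a median of 53.0% over all promoters. The shares are thus not set against promoters of like composition. The neighbouring GC boxes of Klf11 at -205 and -201 overlap. These matches describe the letters in the window and say nothing of binding.

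Library totals ran from 13337848 to 24873844 counted reads, and the lowest count of a member in any tumour was 37 for Klf15, 63 for Klf2, 252 for Klf11 and 327 or more for the rest. Levels are CPM, the share of a gene in the TMM-scaled library total, and a gene was called where edgeR's quasi-likelihood test gave a Benjamini-Hochberg adjusted p under 0.05 over all genes tested. Luminal marker transcripts summed to between 1196 and 4946 CPM and were all detected. Vehicle tumours 2, 6 and 7 stood apart on the first principal component, at 76.7 to 99.0 against at most 32.5 in any other tumour. Their 10 basal and myoepithelial markers summed to between 10824 and 23523 CPM, against 1279 to 5733 in the other 4 vehicle tumours and 247 to 2310 under BYL719. Their 9 squamous markers summed to between 11.7 and 221 CPM, against 577 to 2243 in the other 4. Fibroblast markers summed to between 3993 and 9101 CPM in the 3 tumours, against 1022 to 2609, and endothelial markers to between 292 and 566, against 165 to 229. Neutrophil markers summed to between 8.60 and 20.9 CPM, against 150 to 427. Results that rest on these tumours are given with and without them.

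Klf11 was higher in tumours of both BYL719 groups than in vehicle tumours. Its gene lies on chromosome 12 (mm10, 24651371 to 24662782), and the protein, a SIN3A-recruiting factor, is known in pancreatic islets and metabolism. In vehicle tumours its level was 13.4 CPM at the lowest, 17.1 at the median and 25.4 at the highest. In relapse tumours it was 36.6, 40.9 and 50.4 CPM, and in stable tumours 36.0, 52.3 and 75.1 CPM. Every one of the 14 tumours under BYL719 lay above every vehicle tumour, and the 2 BYL719 groups overlapped each other. Such a separation was found for 84 of all genes tested (0.532%). The mean was 18.6 ± 3.91 CPM in vehicle, 42.4 ± 5.49 in relapse and 55.8 ± 13.7 in stable tumours (SD, n = 7 each).

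Against vehicle, Klf11 was 2.28-fold higher in relapse (log2 fold change 1.19 ± 0.16 SE, 95% interval 0.86 to 1.51) and 3.00-fold higher in stable tumours (1.58 ± 0.16, interval 1.25 to 1.91). The gene was called in both comparisons. Relapse and stable tumours share the same vehicle tumours, so these values are not independent of each other. Between relapse and stable the log2 fold change was -0.40 ± 0.15 (interval -0.72 to -0.08), and Klf11 was not called there. In bulk tumour RNA, a change in the share of cells that express a gene and a change per cell cannot be told apart.

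Vehicle 2, 6 and 7 held the lowest Klf11 levels of the vehicle group, 13.4 to 17.0 CPM against 17.1 to 25.4 in the other 4. These 3 tumours were likewise lowest for 21.1% of all genes. Without them the log2 fold change was 1.03 in relapse and 1.43 in stable tumours, and the gene was still called in both comparisons, where 3.28% and 5.27% of all genes were. Skeletal muscle markers (11 genes) summed to 211 to 555 CPM in vehicle, 189 to 7629 in relapse, with 221 to 4411 in stable tumours. Of the 11 genes, 10 were called higher in relapse and 6 in stable tumours, where 5.42% and 6.9% of all genes were. Without vehicle 2, 6 and 7 none of the 11 was called in either comparison. The 3 BYL719 tumours whose sum did not pass the highest vehicle tumour were relapse 4, stable 2 and stable 3, at 189, 221 and 317 CPM, and Klf11 stood there at 40.9, 52.3 and 50.7 CPM. The part of muscle tissue in the Klf11 level was not tested. The 2 title codes with a tumour in both BYL719 groups gave 38.1 CPM in relapse 5 against 36.0 in stable 5, and 47.5 in relapse 6 against 71.1 in stable 7. The relapse tumour was thus above its partner in one code and below it in the other.

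**Figure D1:**
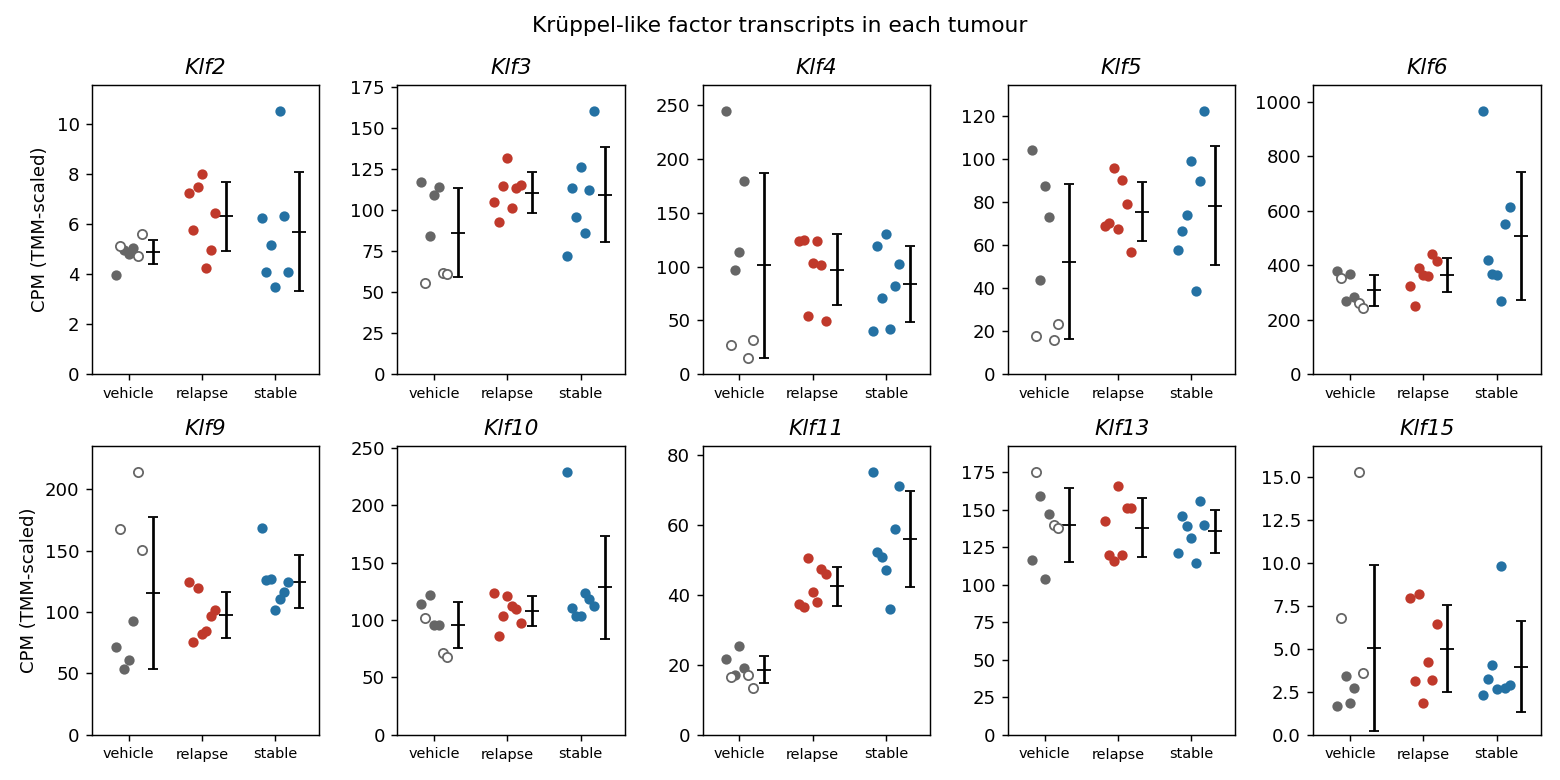
Level of each of the 10 factors in every tumour (vertical axis, CPM on TMM-scaled totals, starting at 0) by group (horizontal axis). Points are tumours, open points are vehicle 2, 6 and 7, and the bars give the mean and SD of 7 tumours; for Klf11 every BYL719 tumour, from 36.0 CPM up, lies above every vehicle tumour.

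Klf10, the closest relative of Klf11 and also a TGF-beta early gene (chromosome 15, 38291464 to 38300711), did not separate the groups. Its levels ran from 67.7 to 122 CPM in vehicle (median 96.0), 86.1 to 124 in relapse (median 109), with 103 to 229 in stable tumours (median 112). Stable 1, at 229 CPM, stood alone, and the other 6 stable tumours lay between 103 and 124. The log2 fold change was 0.17 ± 0.17 in relapse and 0.43 ± 0.17 in stable tumours, and neither was called. Without stable 1 the value for stable tumours was 0.23. Over the 24 alternative ways of processing, the values went down to 0.0076 in relapse and 0.069 in stable tumours, with no call. Stable 1 also had the highest immediate early gene sum, 1519 CPM over 17 genes against 470 to 890 in the other tumours, and the part of this in the Klf10 level was not tested.

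Klf9, a SIN3A-recruiting factor induced by glucocorticoids and thyroid hormone (chromosome 19, 23141226 to 23168129), split the vehicle group. Vehicle 2, 6 and 7 had 150 to 214 CPM and the other 4 had 53.4 to 92.5, a split that 21.1% of all genes showed in this direction. Relapse tumours had 75.9 to 124 CPM (median 96.4) and stable tumours 102 to 169 (median 124). Over all tumours the log2 fold change was -0.24 ± 0.25 in relapse and 0.11 ± 0.25 in stable tumours, with no call. Without vehicle 2, 6 and 7 it was 0.50 in relapse, not called, and 0.86 in stable tumours, called. All 7 stable tumours lay above all 4 of those vehicle tumours, as did 3.59% of all genes. The sign for relapse thus turned with these 3 tumours, whose basal, fibroblast, endothelial and neutrophil marker sums are given above, and the part of those cells in the Klf9 level was not tested.

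Klf13, the last of the SIN3A-recruiting members (chromosome 7, 63886351 to 63938915), was known first from T cells, where it acts on a chemokine gene. Its group means lay close together, at 140 ± 24.4 CPM in vehicle, 138 ± 19.6 in relapse and 136 ± 14.2 in stable tumours (SD, n = 7 each). All 3 groups overlapped over most of their range. The log2 fold change was -0.02 ± 0.11 in relapse (interval -0.26 to 0.22) and -0.05 ± 0.11 in stable tumours (interval -0.28 to 0.19). Its sign turned with upper-quartile scaling, without vehicle 2, 6 and 7, and with some single tumours left out.

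Klf6 was higher in stable than in vehicle tumours. This ubiquitous activator (chromosome 13, 5861489 to 5870393), which has been studied as a tumour suppressor, had 243 to 379 CPM in vehicle (median 283), 248.9 to 442 in relapse (median 366), with 267 to 965 in stable tumours (median 419). The groups overlapped, and stable 1, at 965 CPM, was far above the other stable tumours, which reached at most 612. The log2 fold change was 0.72 ± 0.22 in stable tumours (interval 0.27 to 1.17), which was called, and 0.24 ± 0.22 in relapse (interval -0.21 to 0.69), which was not. Without stable 1 the value in stable tumours was 0.48 and was not called. Nor was it called without vehicle 2, 6 and 7 (0.66), or when any 1 of vehicle 2, 3, 6 and 7 or stable 6 and 7 was left out (0.68 to 0.78). Between relapse and stable the difference was -0.48 ± 0.22 and was not called.

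**Figure D2:**
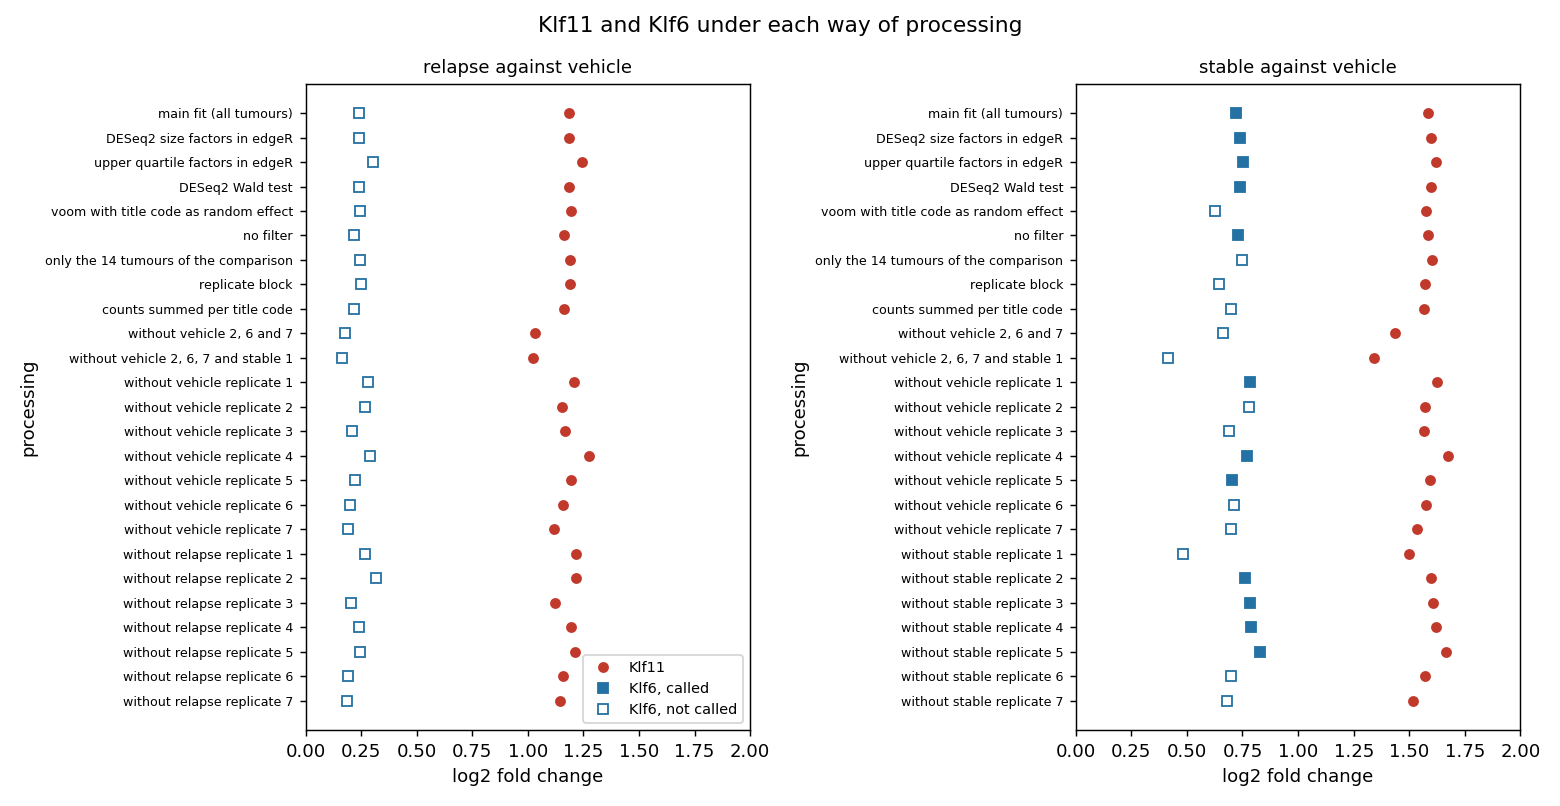
Log2 fold change (horizontal axis) of Klf11 (red circles) and Klf6 (blue squares, filled where called) under each way of processing (vertical axis), in relapse (left) and stable tumours (right) against vehicle. Klf11 stayed between 1.02 and 1.28 in relapse and between 1.34 and 1.67 in stable tumours and was called throughout, while Klf6 in stable tumours ran from 0.41 to 0.83 and lost its call in 13 of 24 alternatives.

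Klf3, Klf4 and Klf5, the members with known roles in epithelia, were low together in vehicle 2, 6 and 7. Klf4 (chromosome 4, 55527137 to 55532475), a regulator of the epidermal barrier and of goblet cells, had 15.3 to 32.0 CPM in these 3 tumours and 96.6 to 245 in the other 4 vehicle tumours. Klf5 (chromosome 14, 99298691 to 99313412), a growth-promoting factor of basal and crypt cells, had 15.6 to 23.4 CPM against 43.9 to 104. Klf3 (chromosome 5, 64803521 to 64832901), a CtBP-recruiting repressor, had 55.7 to 61.7 CPM against 84.4 to 117. Each gene thus split the vehicle group without overlap, which 21.1% of all genes did in the same direction. In the same 3 tumours the squamous and neutrophil marker sums were low, and the basal, fibroblast and endothelial sums high. Stable 1 had a squamous sum of 41.1 CPM, below the 221 of vehicle 7. Klf3, Klf4 and Klf5 stood there at 72.0, 39.9 and 57.4 CPM, each above all 3 of these vehicle tumours. The part of the squamous or basal cells in these levels was not tested.

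Tumours under BYL719 lay between or beside the 2 kinds of vehicle tumour. Klf4 had 49.3 to 125 CPM in relapse (median 103), with 39.9 to 131 in stable tumours (median 82.1), so each treated tumour exceeded the highest of vehicle 2, 6 and 7. Its log2 fold change was -0.06 ± 0.48 in relapse and -0.27 ± 0.48 in stable tumours, and -0.70 and -0.91 without those 3 tumours, with no call in any of these. Klf5 had 56.7 to 95.5 CPM in relapse, with 38.7 to 122 in stable tumours, and its log2 fold changes of 0.53 ± 0.36 and 0.58 ± 0.36 became -0.02 and 0.03 without the 3 tumours. Klf3 had 92.5 to 132 CPM in relapse, with 72.0 to 160 in stable tumours, and its values of 0.36 ± 0.19 and 0.35 ± 0.19 became 0.07 and 0.05. None of these was called. For Klf3, 3.48% of the stretches of 50 bases (the read length) in its transcripts also occur in other genes, and 2 other annotated genes overlap it, 1 of them on its own strand, so its counts are less certain.

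Klf2 and Klf15 were the least abundant members. Klf2 (chromosome 8, 72319062 to 72321654), which keeps endothelium and T cells quiescent, had 3.98 to 5.59 CPM in vehicle, 4.26 to 7.98 in relapse, with 3.46 to 10.5 in stable tumours. The highest value was in stable 5, whose 12 endothelial markers summed to 398 CPM, the highest of the stable group, against 137 to 275 in the other 6. Vehicle 2, vehicle 6 and relapse 2 had higher endothelial sums, 566, 524 and 411 CPM, with Klf2 at 5.12, 4.71 and 5.75 CPM. The part of endothelial cells in the Klf2 level was not tested. The log2 fold change was 0.37 ± 0.21 in relapse and 0.22 ± 0.21 in stable tumours, and neither was called. Without stable 5 the value for stable tumours was 0.0040.

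Klf15, a glucocorticoid-induced regulator of amino acid and glucose metabolism in muscle, liver and fat (chromosome 6, 90461043 to 90491803), had 1.69 to 15.3 CPM in vehicle, 1.85 to 8.20 in relapse, with 2.30 to 9.84 in stable tumours. Vehicle 6 held the 15.3 CPM and stable 5 the 9.84 CPM, while the medians of the 3 groups were 3.41, 4.26 and 2.899. Stable 5 also had the highest skeletal muscle sum of its group, 4411 CPM against 221 to 952 in the other 6, and a fibroblast sum of 8607 CPM against 1633 to 5726. Its adipocyte sum was 729 CPM against 146 to 389. Higher adipocyte sums were those of relapse 1, relapse 7 and vehicle 3, at 1253, 1011 and 779 CPM. Klf15 stood there at 7.99, 6.43 and 3.41 CPM. Vehicle 2 and relapse 4 had fibroblast sums of 9101 and 7194 CPM, with Klf15 at 6.82 and 1.85 CPM. Vehicle 6, with the highest Klf15 level, had a muscle sum of 269 CPM. The highest muscle sums among relapse tumours were 7629, 4850 and 4192 CPM in relapse 1, 2 and 3. Klf15 stood there at 7.99, 3.12 and 8.20 CPM. The part of these cells was not tested. The log2 fold change of -0.02 ± 0.48 in relapse became 1.06 without vehicle 2, 6 and 7, and that of -0.35 ± 0.48 in stable tumours became 0.73, with no call in either case.

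Over the 10 members, 1 (Klf11) was called in relapse against vehicle, where 11.2% of all genes were called and 5.42% were called higher. In stable against vehicle 2 were called (Klf11 and Klf6), where 15.1% of all genes were called and 6.9% were called higher. Since the members were picked with these comparisons in view, nothing is read from these shares. In relapse against stable edgeR called none of the members and 0.0% of all genes. There 2 members and 751 of the 15792 genes had an unadjusted p under 0.05, and DESeq2 called 6 genes (0.038%), none of them a member. The median log2 fold change of the members was 0.21 in relapse, 0.28 in stable tumours and -0.02 between relapse and stable, against -0.02, -0.0048 and -0.01 over all genes.

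**Figure D3:**
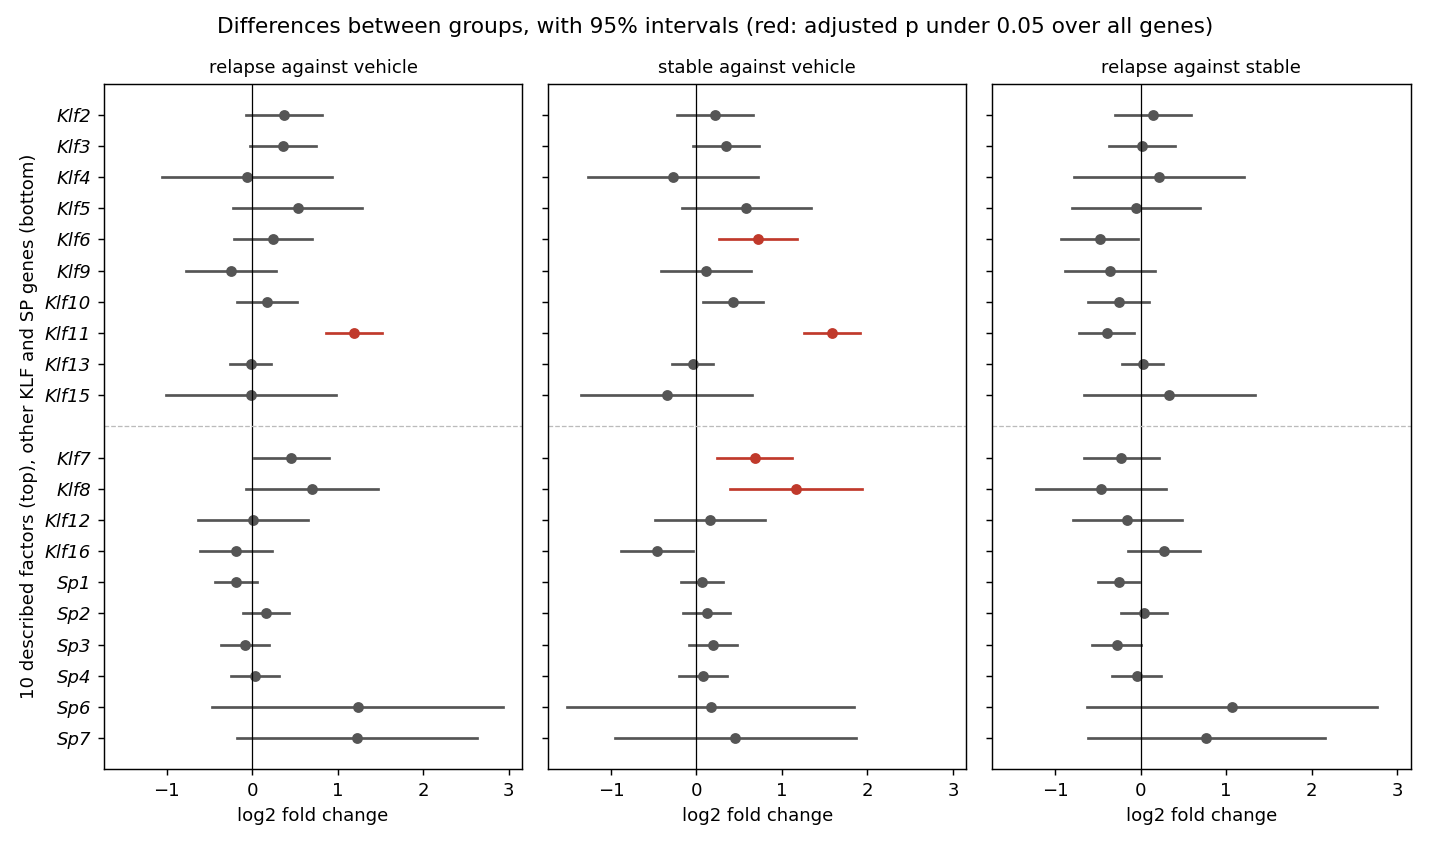
Log2 fold change (point) and its 95% interval (line) for the 10 factors and for the 10 other KLF and SP genes tested, in the 3 comparisons named above the panels. Red marks genes called over all genes tested, which are Klf11 in relapse, and Klf11, Klf6, Klf7 and Klf8 in stable tumours; none is called in the right panel.

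By mean level per transcript length, Klf6 was the most abundant member and Klf11 the eighth. Mean RPKM (CPM per kilobase of the deposited gene length) over all 21 tumours were 93.1 for Klf6, 34.6 for Klf9, 30.9 for Klf4, 29.0 for Klf10, 20.9 for Klf13, 19.8 for Klf3, 19.1 for Klf5, 9.78 for Klf11, 3.10 for Klf2 and 1.99 for Klf15. The ranges over tumours of Klf9, Klf4 and Klf10 overlapped (16.4 to 65.6, 5.01 to 80.4 and 17.7 to 59.95 RPKM), as did those of Klf13, Klf3 and Klf5, so the order within these runs does not stand out from the spread. Klf11 had a mean of 4.68 ± 0.98 RPKM in vehicle, 10.7 ± 1.38 in relapse and 14.02 ± 3.43 in stable tumours (SD, n = 7 each). The group means of Klf5, next above it, were 14.6 ± 10.05, 21.05 ± 3.82 and 21.8 ± 7.75 RPKM. The ranges of Klf11 and Klf5 over the 21 tumours overlapped as well (3.37 to 18.9 and 4.37 to 34.1 RPKM).

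The rest of the family was tested as well, as a list that was also drawn up with earlier results known. Of 16 other KLF and SP genes, 10 passed the filter (Klf7, Klf8, Klf12, Klf16, Sp1, Sp2, Sp3, Sp4, Sp6 and Sp7). In relapse edgeR called none of the 10, with 1 at an unadjusted p under 0.05, and DESeq2 called 0. In stable tumours 2 rose against vehicle, where 6.9% of all genes were called higher. Klf7, the closest relative of Klf6, had 31.9 ± 11.5 CPM in vehicle and 51.1 ± 12.6 in stable tumours (edgeR adjusted p = 0.0368, log2 fold change 0.68 ± 0.21), with all 7 stable tumours above the vehicle median. Klf8, a CtBP-recruiting relative of Klf3, had 2.13 ± 1.09 and 4.78 ± 2.35 CPM (edgeR adjusted p = 0.0404, log2 fold change 1.16 ± 0.37), with 6 of 7 above.

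Both genes were lowest in vehicle 2, 6 and 7 within the vehicle group, which had 20.3 to 22.6 CPM of Klf7 against 27.3 to 47.7 in the other 4 vehicle tumours, and 1.10 to 1.31 CPM of Klf8 against 1.65 to 3.83. Of all genes, 21.1% were likewise lowest in these 3 tumours. Without these 3 tumours neither gene was called. Sp1 and Sp3, the widely expressed founders of the SP branch, had log2 fold changes of -0.19 ± 0.12 and -0.09 ± 0.14 in relapse and 0.06 ± 0.12 and 0.20 ± 0.14 in stable tumours. Sp2 and Sp4 lay within 0.16 of 0 in both comparisons, at 0.16 ± 0.13 and 0.03 ± 0.14 in relapse and 0.12 ± 0.13 and 0.08 ± 0.14 in stable tumours. Klf12, a CtBP-recruiting repressor, had 0.01 ± 0.31 and 0.16 ± 0.31, and Klf16, of the SIN3A-recruiting branch, -0.19 ± 0.20 and -0.46 ± 0.20. The intervals of Sp6 (-0.47 to 2.93) and Sp7 (-0.17 to 2.63) in relapse were too wide to place either gene.

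**Figure D4:**
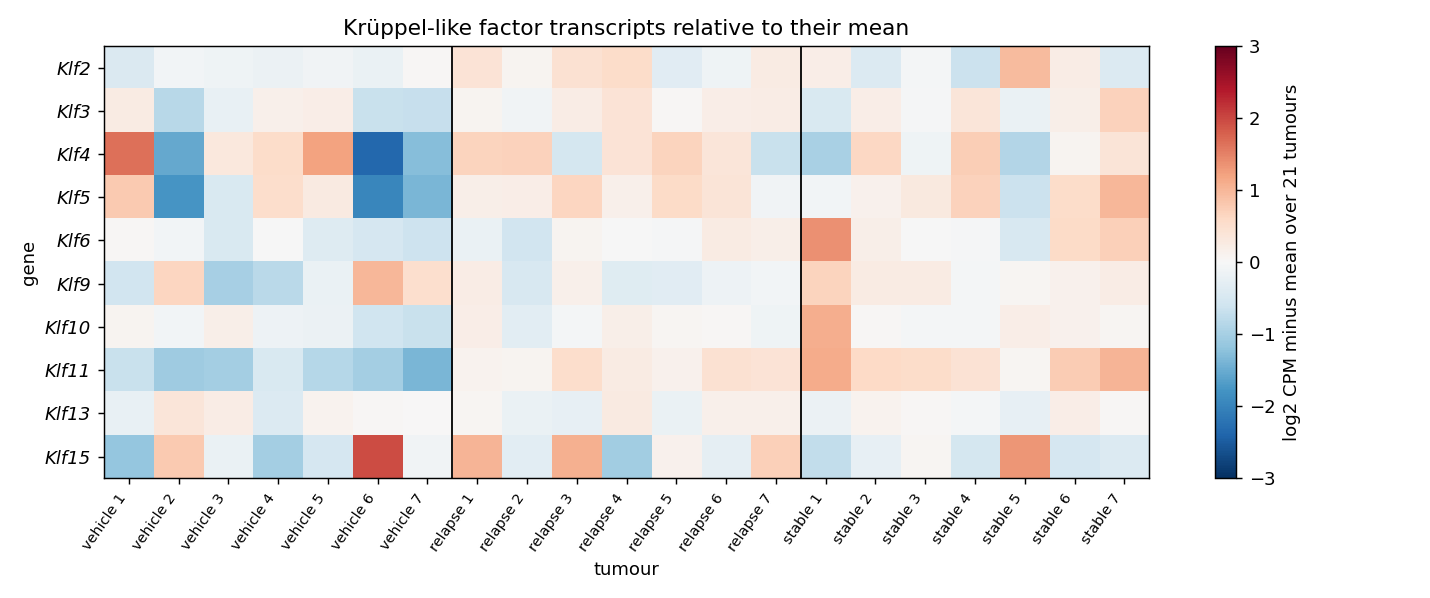
Log2 CPM of each factor in each tumour minus the mean of that factor over the 21 tumours (colour), with factors as rows and tumours as columns in the order vehicle, relapse, stable. Klf3, Klf4 and Klf5 are low and Klf9 is high in vehicle 2, 6 and 7, and Klf11 is low in all 7 vehicle tumours.

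The partners and upstream pathways of the members were followed in lists of genes, all drawn up with earlier results of these data known. Of all genes, 11.2% were called in relapse and 15.1% in stable tumours. These shares were 3.28% and 5.27% without vehicle 2, 6 and 7. Of 12 partners and regulators of Krüppel-like factors, among them the corepressor genes Sin3a, Ctbp1 and Hdac1 and the acetyltransferase gene Ep300, edgeR called none in relapse and none in stable tumours, with 1 and 0 at an unadjusted p under 0.05 and 0 by DESeq2 in both. Their median log2 fold changes were -0.06 and -0.11. Of 13 early response genes of TGF-beta, 4 rose and 1 fell in relapse, with a list median of 0.19. The risers were Smad7, an inhibitory SMAD (0.93 ± 0.25, edgeR adjusted p = 0.0218), Id1 (1.01 ± 0.29, adjusted p = 0.03), Tgif1 (0.77 ± 0.22, adjusted p = 0.0312) and Smad6, and the gene that fell was Pmepa1, a feedback inhibitor of TGF-beta signalling (-0.53 ± 0.16, adjusted p = 0.0439). In stable tumours Tgif1, a corepressor of SMADs, rose (1.04 ± 0.23, edgeR adjusted p = 0.00599) and Pmepa1 fell (-0.62 ± 0.16, adjusted p = 0.0187). Without vehicle 2, 6 and 7 none of these 5 genes was called in either comparison, and the 1 gene of the list called, in relapse, was Id3.

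Of 12 genes of FOXO factors and of the feedback that follows PI3K inhibition, 8 rose and 1 fell in relapse and 8 rose in stable tumours. Of all genes, 11.2% and 15.1% were called in these comparisons, and the list was drawn up with earlier results known. The list medians were 0.52 and 0.65. In relapse the lowest p-values were those of the insulin pathway genes Irs2 (1.27 ± 0.20, edgeR adjusted p = 0.00115) and Igf1r (1.33 ± 0.21, adjusted p = 0.00167) and of Foxo4 (0.45 ± 0.10, adjusted p = 0.0068). The gene that fell was Foxo1 (-0.68 ± 0.22, adjusted p = 0.0448). In stable tumours the lowest were those of Sesn3, an inhibitor of mTORC1 (1.20 ± 0.18, edgeR adjusted p = 0.000492), the receptor gene Erbb3 (1.35 ± 0.20, adjusted p = 0.000614) and Foxo4 (0.58 ± 0.10, adjusted p = 0.000946). Without vehicle 2, 6 and 7, 4 rose in relapse and 8 in stable tumours, where 3.28% and 5.27% of all genes were called. None of the list was then called lower, so the call of Foxo1 was lost.

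Clock genes, which control the rhythm of Klf9, Klf10 and Klf15 in other tissues, held some that fell. In relapse these were 4 of 15, among them Clock (-0.93 ± 0.20, edgeR adjusted p = 0.00719), Ciart (-1.19 ± 0.32, adjusted p = 0.022) and Per1 (-0.64 ± 0.18, adjusted p = 0.0257). In stable tumours 4 fell, among them Cry1 (-0.78 ± 0.14, edgeR adjusted p = 0.00142), Ciart (-1.45 ± 0.33, adjusted p = 0.00746) and Per2 (-1.43 ± 0.37, adjusted p = 0.0151). Without vehicle 2, 6 and 7 none was called in relapse, and Cry1 was the 1 gene called in stable tumours. Over all tumours, 11.2% of all genes were called in relapse and 15.1% in stable tumours. Collection times of day are not among the labels.

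Of 12 glucocorticoid response genes, Pdk4, which restrains pyruvate oxidation, rose in relapse (1.94 ± 0.48, edgeR adjusted p = 0.0143) and Per1 fell. In stable tumours edgeR called none of the 12, with 1 at an unadjusted p under 0.05 and 1 by DESeq2. Of 9 adipogenic transcription factors, Ebf2 (1.53 ± 0.37, edgeR adjusted p = 0.013) and Ebf1 (1.31 ± 0.34, adjusted p = 0.0191) rose and Srebf1 fell (-0.61 ± 0.19, adjusted p = 0.0445) in relapse. In stable tumours Ebf2 rose (1.22 ± 0.37, edgeR adjusted p = 0.0331), and Srebf1 (-0.64 ± 0.19, adjusted p = 0.0313) and Zfp423 (-1.35 ± 0.42, adjusted p = 0.0361) fell. Of the Klf15-related list of 8 tested genes of amino acid catabolism and glucose uptake, Bckdhb fell in both comparisons (-0.64 ± 0.20, edgeR adjusted p = 0.0389 in relapse, and -0.69 ± 0.20, adjusted p = 0.0256 in stable tumours) and the glucose transporter gene Slc2a4 fell in stable tumours (-1.89 ± 0.61, adjusted p = 0.043).

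Of 5 endothelial targets of Klf2 and Klf4, Thbd, which encodes thrombomodulin, rose in relapse (1.52 ± 0.29, edgeR adjusted p = 0.00439) and in stable tumours (1.00 ± 0.29, adjusted p = 0.0259), while neither Klf2 nor Klf4 was called. Of 17 immediate early genes, Myc rose (0.94 ± 0.28, edgeR adjusted p = 0.0353) and Fosb fell (-2.18 ± 0.62, adjusted p = 0.0275) in relapse, and Fosb fell in stable tumours (-2.21 ± 0.62, adjusted p = 0.023). Of the genes named from the last 5 lists, Pdk4 and Thbd in relapse were still called without vehicle 2, 6 and 7. In relapse against stable none of the 9 pathway lists held a gene called by edgeR or DESeq2, with 0 to 2 genes a list at an unadjusted p under 0.05.

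Klf11 levels were followed most closely over the 21 tumours by Harbi1, Gpbp1l1, Klhl24, Rps6ka5 and Erbb3, among 13365 genes of sufficient level. Pearson's r of log2 CPM was 0.96 for Harbi1, 0.96 for Gpbp1l1, and 0.95 for Klhl24, Rps6ka5 and Erbb3. The split between vehicle and BYL719 tumours enters these values. Once the group means were taken out, r was 0.86 for Harbi1, 0.82 for Gpbp1l1 and Erbb3, 0.64 for Klhl24 and 0.54 for Rps6ka5. Harbi1 encodes a transposase-derived protein and Erbb3 a neuregulin receptor. By rank correlation, 3 of the 5 genes were still among the first 5, and 3 were without vehicle 2, 6 and 7.

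**Figure D5:**
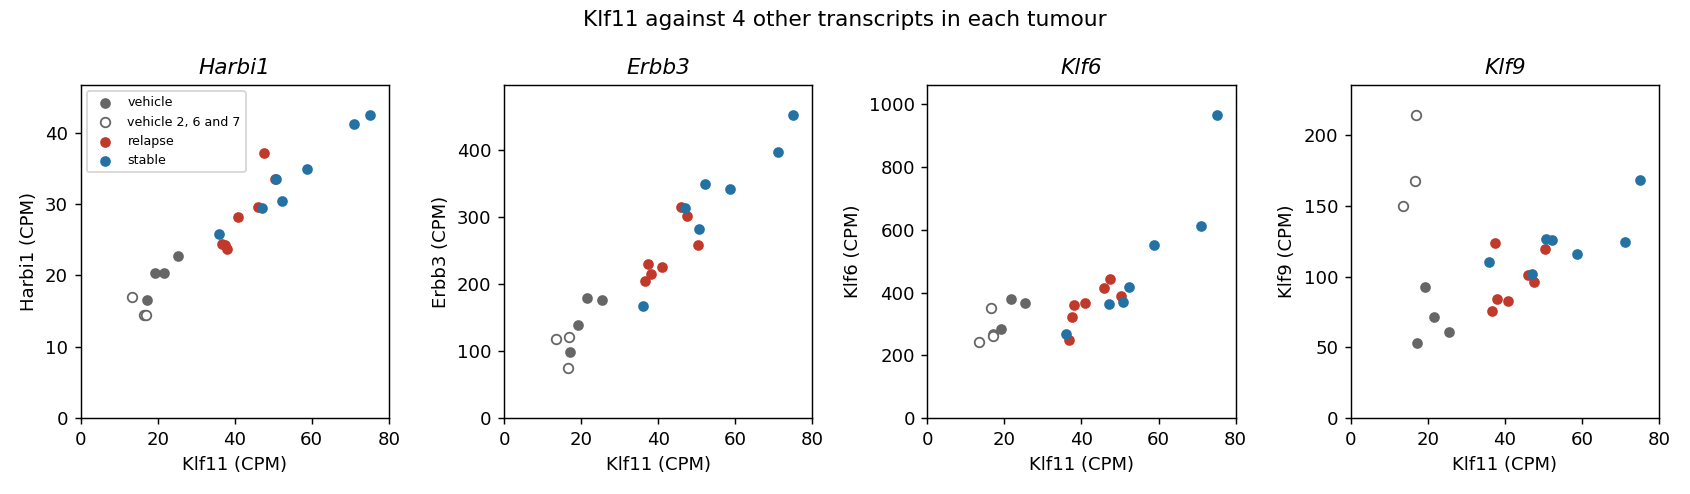
Level of Harbi1, Erbb3, Klf6 and Klf9 (vertical axes, CPM) against Klf11 (horizontal axis, CPM) in each of the 21 tumours, coloured by group, with vehicle 2, 6 and 7 open. Harbi1 and Erbb3 rise with Klf11 across the tumours, and in the Klf9 panel the 3 open points, at 150 to 214 CPM of Klf9, lie apart from the rest.

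Among the 45 pairs of members, Klf3 and Klf5 varied most closely (r = 0.89 over 21 tumours), followed by Klf4 and Klf5 (r = 0.81). Without vehicle 2, 6 and 7 these were 0.69 and 0.49. Klf11 was closest to Klf6, with r = 0.74 over all tumours, 0.86 after group means were taken out and 0.72 without the 3 vehicle tumours. Stable 1 and stable 7 held the highest levels of both, 75.1 and 71.1 CPM of Klf11 and 965 and 612 CPM of Klf6. Klf11 and Klf9 had r = 0.09 over all tumours, -0.14 after group means were taken out and 0.82 without the 3 vehicle tumours. The split between vehicle and BYL719 tumours enters the 0.82. Klf11 and Klf10 had r = 0.57, and Klf11 and Klf13 -0.12. These correlations are descriptions over libraries that share groups and scaling.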

How the data were processed

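Poly(A) RNA of 21 tumours was sequenced as stranded, single-end reads of 50 nucleotides, per the labels' protocols. The submitters' processing notes name STAR 2.5.2a, SAMtools 1.3.1, Picard 2.9.2, edgeR and mm10, and no source used here names the gene counter or the annotation. The deposited table holds raw counts per gene with symbol, position and length, for 24028 genes, 14 of them without a symbol. Its rows were read from their last 25 cells, since 10202 have an extra leading cell. Library totals were 21043399 to 24873844 (vehicle), 17722622 to 21431465 (relapse) and 13337848 to 24648463 (stable). No 2 tumours of a group agreed within sampling noise (lowest chi-square per degree of freedom 17.6).

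Groups came from the sample titles. Genes were filtered with filterByExpr by group, scaled by TMM and fitted with edgeR 4.0.16 (glmQLFit, glmQLFTest; R 4.3.3) on all 21 tumours, with Benjamini-Hochberg adjustment over 15792 genes. Standard errors are the log2 fold change over the square root of F. Correlations use log2 CPM with a prior count of 2. Alternatives were DESeq2 1.42.0 and its size factors, upper-quartile scaling, no filter, limma 3.58.1 voom with title codes as random effects, only the 14 tumours compared, a replicate block, counts summed per title code, each tumour left out, and vehicle 2, 6 and 7 left out. Leaving out stable 1 with these 3, and the pathway lists without the 3, were added after seeing the data. The fit was tested on simulated data.

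The members and gene lists were chosen with earlier results of these data known. Named genes were the 10 members, the other KLF and SP genes tested, up to 3 genes of lowest p called in each list and comparison, the 5 genes most correlated with Klf11, and markers that moved with a member; Smad6, Foxo1, Id3 and Pmepa1 beyond these were named after their values were seen.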

Additional observations from a re-analysis of the deposited data

Results flagged for a closer look

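Among 30 groups of 7 tumours (10 factors in 3 groups), 5 had 1 tumour so far from its nearest neighbour that the gap exceeded 0.568 of the group's range. Chance gives about 1 such group in 20 where values are normally distributed, which was not checked for these CPM. In all 5 the tumour was the highest of its group. In stable 1, Klf10 was 229 CPM, next to 124 in the following tumour. In the same tumour Klf9 was 169 CPM, next to 127. In stable 5, Klf2 was 10.5 CPM, next to 6.33, and Klf15 was 9.84 CPM, next to 4.10. In vehicle 6, Klf15 was 15.3 CPM, next to 6.82.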

How the results depend on the processing

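Of 720 fold changes of single members under alternatives, 648 kept their direction and side of the threshold, 13 lost a call, 2 gained one and 57 changed sign. All 13 lost calls were those of Klf6 in stable tumours, and both gained ones were of Klf9 in stable tumours without vehicle 2, 6 and 7, with and without stable 1. Klf11 kept its calls in both comparisons in all 24 alternatives.

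The number of members called in stable tumours was 1 with voom, with only the 14 tumours, and with counts summed per title code, and 1 to 2 with each tumour left out. Of the other KLF and SP genes, 1 (Sp5) was called in relapse with no filter and with summed counts. It was also called without vehicle 2, 6, 7 and stable 1. With each tumour left out 0 to 1 was called. This was Sp5, for each vehicle tumour and for relapse 1, 5 and 7. Sp5 did not pass the filter of the main fit. It had at most 0.13 CPM in vehicle and 0.15 to 3.65 CPM in relapse tumours, with the highest level in relapse 2. In stable tumours 1 of the other KLF and SP genes was called with voom and with summed counts. There 0 were called with only the 14 tumours and 0 without vehicle 2, 6 and 7, and 0 to 3 with each tumour left out. Same-numbered tumours' deviations from the group means correlated from -0.26 to 0.36. This does not show whether replicate numbers pair the tumours, since relapse 5 and stable 5, which share a title code, gave -0.14. With the replicate block, 1 member and 0 of the other KLF and SP genes were called in stable tumours, Klf4 had 0.14 in relapse and 0.076 in stable tumours, and Klf15 had 0.18 in relapse.

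Other changes of sign, as log2 fold changes, follow. In relapse without vehicle 2, 6 and 7, and also without stable 1, Klf5 had -0.022 and -0.032, Klf9 0.50 and 0.49, Klf13 0.078 and 0.066 and Klf15 1.06 and 1.05. In stable tumours Klf13 then had 0.055 and 0.072 and Klf15 0.73 and 0.81. With voom Klf4 had 0.44 in relapse and 0.20 in stable tumours, Klf15 0.23 in relapse, and Klf5 0.0049 between relapse and stable. With upper-quartile scaling Klf13 had 0.042 in relapse and 0.0099 in stable tumours, and Klf15 0.075 in relapse. With summed counts Klf15 had 0.094 in relapse and Klf3 -0.024 between relapse and stable. Between relapse and stable Klf3 had -0.0050 with no filter, and without vehicle 2, 6, 7 and stable 1 Klf3 had -0.075 and Klf13 -0.0065.

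With each tumour left out in turn, the ranges in relapse were -0.26 to 0.31 for Klf4, -0.080 to 0.032 for Klf13 and -0.20 to 0.58 for Klf15. In stable tumours they were -0.47 to 0.11 for Klf4, -0.016 to 0.35 for Klf9, -0.11 to 0.020 for Klf13 and -0.76 to 0.25 for Klf15. Between relapse and stable they were -0.066 to 0.12 for Klf3, -0.17 to 0.075 for Klf5 and -0.024 to 0.062 for Klf13. The genes most correlated with Klf11 shared 3 of 5 by rank correlation and 3 of 5 without vehicle 2, 6 and 7. Of 38 list counts that were not 0 throughout, 34 moved by over 1.5 times without these 3 tumours. The cause of these changes was not tested. The low counts of Klf2 and Klf15 limit their precision.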
